A study of Mus musculus with 2 samples.

Results

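The natural killer (NK) cells of MC38 tumors were examined in 2 single-cell libraries of CD45+ cells. The cells were chosen by measured values, the counts of unique molecular identifiers (UMIs) of a few genes in each barcode. Barcodes of 200 genes or more, with mitochondrial UMIs at 10% or below, were kept. A kept barcode was an NK cell when it held at least 2 UMIs of Ncr1, Klrb1c and Klre1 in sum, no UMI of Cd3d, Cd3e or Cd8b1, and under 10 UMIs of the complement genes C1qa, C1qb and C1qc. This rule found 137 NK cells among 10037 kept cells of the MWA library and 106 among 9913 of the MWA plus TIGIT library, 243 of 19950 in all. MC38 is a mouse colon cancer cell line, and it was grown under the skin of both flanks of C57BL/6 mice, which were young adult males. In both groups the tumor on the right was treated with microwave ablation (MWA), which destroys tissue by heat, once it measured about 300 mm3, and the cells came from the untreated tumor on the left on day 8. The MWA plus TIGIT group also received an antibody against TIGIT by intraperitoneal injection, 3 times at intervals of 3 days from day 1 after ablation. The MWA group was given an isotype control antibody in the study's treatment experiments. Each group was 1 library, with no number of mice given, and mice without ablation were not analysed here. There was therefore no replicate, and every interval below is a 95% interval that covers counting error only.

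NK cells are innate lymphocytes that kill target cells without a rearranged antigen receptor. They weigh signals from activating receptors, such as NKp46 and NKG2D, against those from inhibitory receptors, such as the Ly49 family and CD94/NKG2A, and they kill with perforin and granzymes or with death ligands. In tumors they also release interferon-γ and chemokines such as XCL1, which draws in dendritic cells. TIGIT is an inhibitory receptor of NK and T cells that binds the same ligands as the activating receptor CD226.

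The promoters of 4 genes named in the results are shown first. Ncr1 marks the cells, and the granzyme genes Gzma and Gzmc divide them in part. Gzmf, a granzyme gene near Gzmc, had a UMI in only 4 NK cells of each library. The sequences are the RefSeq promoters of build GRCm38.p6, from 250 bases before to 50 bases after the start site, written 5′ to 3′ on the gene's strand. Capitals mark AGGTGT, the core of the site for T-box factors such as EOMES, and TGTGGT, the core of the RUNX site, each as its own letters or their reverse complement; no 2 matches overlap. Ncr1 lies at chr7:4337465-4337764 on the plus strand, Gzma at chr13:113100932-113101231, Gzmc at chr14:56234608-56234907 and Gzmf at chr14:56211358-56211657, all 3 on the minus strand.
Ncr1: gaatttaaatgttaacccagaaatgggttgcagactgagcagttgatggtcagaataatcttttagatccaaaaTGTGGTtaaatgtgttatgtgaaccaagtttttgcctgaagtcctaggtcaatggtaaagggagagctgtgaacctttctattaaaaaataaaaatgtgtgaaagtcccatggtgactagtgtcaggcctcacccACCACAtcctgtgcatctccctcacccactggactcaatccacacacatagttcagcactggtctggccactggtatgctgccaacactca
Gzma: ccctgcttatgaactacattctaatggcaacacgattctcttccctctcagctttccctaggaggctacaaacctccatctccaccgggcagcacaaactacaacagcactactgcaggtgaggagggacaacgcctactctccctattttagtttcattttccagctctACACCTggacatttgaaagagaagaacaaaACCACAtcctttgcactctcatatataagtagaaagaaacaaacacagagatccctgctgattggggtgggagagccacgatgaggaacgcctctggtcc
Gzmc: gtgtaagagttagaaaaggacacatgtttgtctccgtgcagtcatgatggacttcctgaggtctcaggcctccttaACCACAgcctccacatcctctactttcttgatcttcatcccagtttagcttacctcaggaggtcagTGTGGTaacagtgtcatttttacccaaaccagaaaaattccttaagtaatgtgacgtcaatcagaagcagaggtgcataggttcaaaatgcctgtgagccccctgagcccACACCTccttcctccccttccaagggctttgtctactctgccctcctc
Gzmf: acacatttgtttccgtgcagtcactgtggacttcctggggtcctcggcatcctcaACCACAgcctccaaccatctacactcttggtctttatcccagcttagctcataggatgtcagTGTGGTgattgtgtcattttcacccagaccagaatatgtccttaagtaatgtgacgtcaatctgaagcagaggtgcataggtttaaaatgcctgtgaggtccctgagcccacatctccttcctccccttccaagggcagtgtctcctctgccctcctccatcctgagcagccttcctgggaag
The RUNX core lies at -176 and -41 from the start site of Ncr1, at -50 in Gzma, at -174 and -108 in Gzmc and at -195 and -133 in Gzmf. The T-box core lies at -80 in Gzma and at 2 bases after the start site in Gzmc, and these letters are not in the Gzmf or Ncr1 window. Of all 32851 RefSeq promoters of this length, 16.8% held the RUNX core and 13.7% the T-box core. Of the 17 leading NK genes (those with the highest ratio over the other cells) that had a promoter sequence, 9 held the RUNX core and 3 the T-box core, which was 10 and 3 of their 22 promoters. The 9 include Ncr1, Klrb1c and Klre1, which lead because the rule chose the cells by them. Whether the RUNX core is more frequent in NK genes was not tested. The promoters of Gzmc and Gzmf were 89.4% identical over 273 aligned bases. Gzma resembled Gzmc over 65 bases only, at 75.4%. A match of letters is a description of the window and no evidence that a factor binds there.

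The cells also held NK markers beyond the genes that chose them, though not every marker was above other cells. Of the 14 NK markers that the rule did not use, none was at 0 in either library. Levels are in CPM (UMIs of the genes scaled to the same total in each library and cell type). The 14 markers summed to 14729 CPM in the MWA library and 15804 CPM in the MWA plus TIGIT library. CD8+ T cells of the same libraries had 3728 and 4289 CPM, and macrophages 5780 and 5547 CPM. Much of the NK cell sum came from Gzma, Tyrobp and Fcer1g. Klrc1 was level with CD8+ T cells, with log2 ratios of 0.05 and -0.19 whose intervals held 0. Cma1 had only 10 and 13 UMIs. Eomes, the T-box factor that conventional NK cells need, stood at 104 and 130.8 CPM, against 28.73 and 39.76 CPM in CD8+ T cells. At 1000 UMIs per cell, an Eomes UMI was found in 10.22% and 15.24% of NK cells and in none of the B cells. Il2rb, the shared chain of the receptors for IL-2 and IL-15, stood at 713.1 and 805.2 CPM against 262.6 and 243 CPM in CD8+ T cells. Nkg7, a granule protein gene, was found in every NK cell, but its level of 1747 and 1799 CPM was matched by CD8+ T cells, at 1715 and 2179 CPM. Tyrobp and Fcer1g, the adaptors DAP12 and FcRγ that carry activating receptor signals, had UMIs in at least 97.81% of NK cells. Both are also genes of macrophages.

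**Figure D1:**
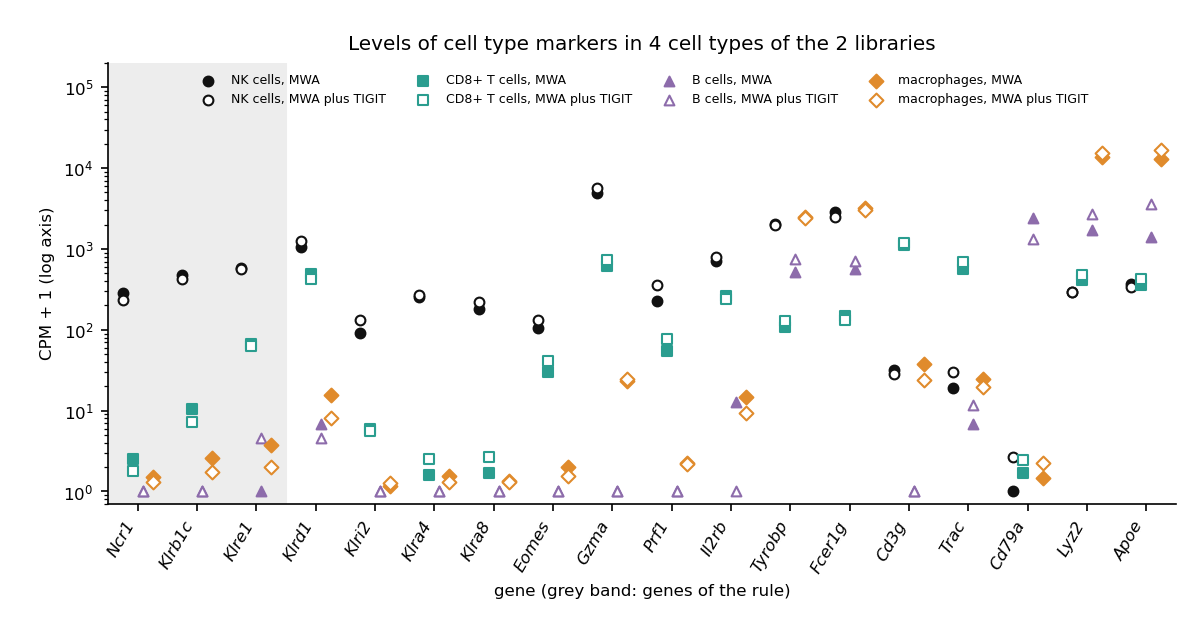
Level of 18 genes (vertical axis, CPM plus 1 on a log axis) in NK cells, CD8+ T cells, B cells and macrophages, with filled symbols for the MWA library and open symbols for the MWA plus TIGIT library; the gray band marks the genes of the rule. Klri2, Klra4 and Klra8 lie near the bottom of the axis in the other 3 cell types, whereas Lyz2 and Apoe are present in NK cells at a level below that of macrophages.

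Genes of other cells were low but not all absent. The 9 T cell genes summed to 619.5 and 762.8 CPM in NK cells, against 4182 and 4404 CPM in CD8+ T cells. Cd5 was at 0 in both libraries and Cd8a in the MWA plus TIGIT library. Most of the T cell sum came from the T cell receptor β constant genes, Trbc1 at 298.6 and 365.2 CPM and Trbc2 at 179.8 and 265 CPM, whereas the α constant gene Trac had 12 and 17 UMIs. The γδ T cell genes summed to 111.4 and 108.7 CPM, against 82.97 and 51.95 CPM in CD8+ T cells, and whether γδ T cells without a Cd3d or Cd3e UMI are among the NK cells was not tested. The 9 macrophage genes summed to 952.3 and 961.5 CPM, none at 0, close to the 1136 and 1283 CPM of CD8+ T cells and far below the 42606 and 49234 CPM of macrophages. Lyz2 had a UMI in 75.91% and 75.47% of NK cells. Of the genes of group 2 and 3 innate lymphoid cells, Il1rl1, Il17a and Il22 were at 0 in both libraries and Areg had 7 and 4 UMIs. The B cell genes summed to 1.486 and 1.699 CPM, which is 1 UMI in each library. Cells at the edge of the rule differed in this respect. The 14 and 10 cells with a marker sum of exactly 2 had 303 and 201.5 CPM of Lyz2, whereas the 17 and 11 cells just outside, with 1 marker UMI, had 3557 and 6987 CPM. Eomes stood at 121.2 and 251.9 CPM just inside and 41.05 and 32.2 CPM just outside, and Gzma at 3414 and 5139 CPM against 1177 and 450.8 CPM.

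NK cells were a small share of the infiltrate in both groups. They made up 1.365% of the kept CD45+ cells in the MWA library (interval 1.147 to 1.612%) and 1.069% in the MWA plus TIGIT library (0.8763 to 1.292%). The difference was -0.2956 percentage points, and its interval, -0.6088 to 0.01572, held 0. Set against CD8+ T cells alone, NK cells were 7.523% and 5.43% of both types together, a difference of -2.093 points (-3.718 to -0.4875). CD8+ T cells themselves were 16.78% and 18.62% of kept cells. Because the cells were sorted on CD45 and counted as shares, fewer NK cells and more of the other cells cannot be told apart. The median kept cell had 5747 and 6838 UMIs, and the median NK cell 4215 and 4534.5 UMIs and 1440 and 1479.5 genes.

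The genes that set NK cells apart were mostly receptors of the NK gene complex and effector genes. Since the rule chose the cells, these ratios are a description. Klra4, which encodes the activating receptor Ly49D, stood at 251.1 and 266.7 CPM, 248.5-fold and 441.9-fold above all other kept cells. Klra8, the activating receptor Ly49H, stood at 179.8 and 222.5 CPM, 158.7-fold and 422.6-fold above them. Gzmc, which encodes granzyme C, stood at 3915 and 2331 CPM, 143.1-fold and 284.5-fold above the rest, and 60.85-fold and 111.7-fold above CD8+ T cells. Gzma, the gene of the tryptase granzyme A, was at 4880 and 5679 CPM, 39.67-fold and 46.75-fold above the rest. Xcl1 stood at 3141 and 3442 CPM, 27.42-fold and 45.8-fold above the rest. Among the 20 leading genes were also Clnk and Styk1, which encode signaling proteins, at 112.9 and 124 CPM and at 129.3 and 124 CPM, and Car2, the gene of carbonic anhydrase 2, at 343.2 and 419.6 CPM. Members of the Ly49 family have near-identical copies, so how their reads were divided among them is uncertain.

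Against CD8+ T cells, 415 of 8190 genes (5.07%) were at least 1.5-fold higher in NK cells in both libraries and 959 (11.7%) at least 1.5-fold lower. All 7 measured Ly49 genes were higher in both libraries, whereas of 13 inhibitory receptors and checkpoints 3 were higher and 4 lower. Irf8, a transcription factor of NK and myeloid cells, stood at 618 and 620.1 CPM against 79.29 and 63.48 CPM in CD8+ T cells. Sh2d1b1, the adaptor EAT-2 that acts below SLAM receptors, stood at 50.51 and 49.26 CPM against 1.306 and 0.7688 CPM. The genes furthest below CD8+ T cells, aside from those of the rule, were genes of the T cell lineage and Adam19, a metalloprotease gene with 1 and 2 UMIs. Themis and Cd5, which set the strength of T cell receptor signals, had no UMI in NK cells. At the floor of 3 UMIs per library, Themis was at least 23.54-fold and 24.92-fold lower and Cd5 at least 25.26-fold and 20.37-fold lower. Bcl11b, which commits cells to the T lineage, had 1 and 0 UMIs. Cd3g remained at 31.2 and 27.18 CPM, against 1127 and 1170 CPM. Of the 22 cycling genes, 19 were lower than in CD8+ T cells in both libraries and none was higher, and of 24 interferon-stimulated genes 16 were lower and none was higher. Ifi27l2a, an interferon-stimulated gene, was the clearest, at 84.68 and 124 CPM in NK cells against 1226 and 1426 CPM. Of 18 homing receptors, 7 were lower and 3 higher in both libraries. Cxcr6, the receptor for CXCL16, stood at 13.37 and 11.89 CPM against 184.1 and 245.7 CPM. Ccr2, the receptor for CCL2, stood at 179.8 and 222.5 CPM against 61.72 and 151.6 CPM. This was under 1.5-fold in the MWA plus TIGIT library, so Ccr2 was not among the 3 higher.

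Gzma and Gzmc were held in part by different NK cells, to a degree that depended on the limit set for holding a gene. Gzma UMIs per cell ranged up to 205 and 232 with a median of 14 and 22, whereas Gzmc UMIs ranged up to 212 and 187 with a median of 0 in both libraries. With 3 UMIs as the limit for each gene, a split chosen after the values were seen, 74 of 137 MWA cells and 72 of 106 MWA plus TIGIT cells held Gzma only, 31 and 15 held Gzmc only, 14 and 10 held both and 18 and 9 held neither. Among cells with Gzmc, 31.11% and 40% also held Gzma, whereas 80.43% and 88.89% of the other cells held it. With 1 UMI as the limit, 24 of 48 and 18 of 31 cells with Gzmc also held Gzma, and with 10 UMIs 6 of 32 and 4 of 20. Across cells the Spearman correlation of both genes was -0.502 over 137 cells and -0.489 over 106, as a description, since the cells of a library share its depth and its free RNA. Near the limit, with 1 to 5 UMIs, lay 17 of 100 and 5 of 85 cells with Gzma and 11 of 48 and 10 of 31 cells with Gzmc. The Gzmc only cells were deeper, with a median of 7063 and 7605 UMIs against 3294 and 3453.5 UMIs in Gzma only cells. The part that depth has in the contrast of their levels was not tested.

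**Figure D2:**
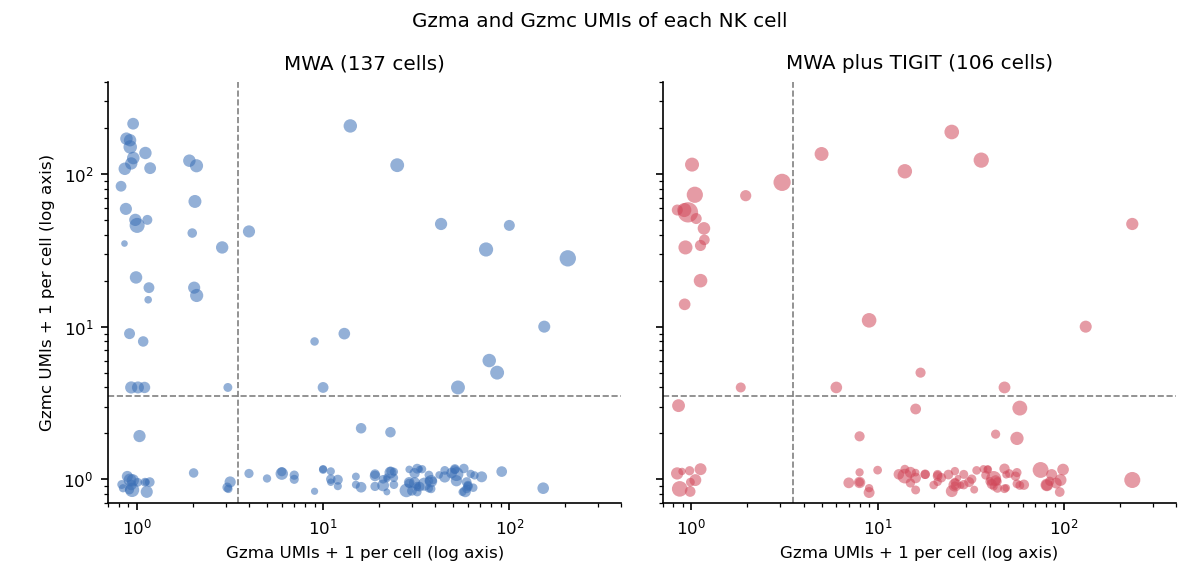
UMIs plus 1 of Gzma (horizontal) and Gzmc (vertical), both on log axes, for each NK cell of the MWA library (137 cells, left) and the MWA plus TIGIT library (106 cells, right); points are slightly scattered for visibility, larger points are cells of more UMIs, and dashed lines mark the limit of 3 UMIs. Most cells lie along one of the axes, and 14 and 10 cells lie in the upper right.

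Gzmc only and Gzma only cells differed in many other genes. Levels were compared for 1876 genes with at least 50 UMIs over both libraries, leaving out Gzma and Gzmc, and 38 of them (2.03%) were higher in Gzmc only cells with both intervals above 0, whereas 82 (4.37%) were lower with both intervals below 0. The genes named here were chosen after their values were seen. Itga1, the integrin CD49a that marks tissue-resident NK cells and group 1 innate lymphoid cells (ILC1), stood at 58.31 CPM in Gzma only and 218.5 CPM in Gzmc only cells of the MWA library, a log2 ratio of 1.91 (1.05 to 2.83). In the MWA plus TIGIT library it stood at 76.5 and 250.4 CPM, or 1.71 on the log2 scale (0.91 to 2.53). The phosphatase gene Inpp4b had log2 ratios of 4.15 and 2.68, and Ikzf2, the gene of the transcription factor Helios, of 2.30 and 4.91. Over all NK cells of the MWA plus TIGIT library, Ikzf2 had 31 UMIs in 10 cells, and its top cells held 12 and 7 of them. Tnfsf10, the gene of the death ligand TRAIL, had log2 ratios of 1.62 and 1.31. The calcium-binding S100a4 went from 123.9 to 993.4 CPM and from 124.3 to 994.4 CPM between the classes. Klra5, the gene of Ly49E, was at 14.58 and 253.3 CPM in the MWA library and at 12.75 and 58.93 CPM in the other. Over all NK cells Klra5 had UMIs in 14 and 7 cells. In the MWA plus TIGIT library its top cells held 11 and 8 of 31 UMIs. Igflr1, a receptor gene of the TNF receptor family, and Ifitm1, an interferon-induced transmembrane protein gene, were also higher in Gzmc only cells of both libraries.

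Several receptor and cytotoxic genes and the chemokines Ccl3, Ccl4 and Ccl5 lay on the other side. Xcl1 was not among them, at 2533 CPM in Gzma only and 4316 CPM in Gzmc only cells of the MWA library and at 2158 and 2298 CPM in the other. Ccl5 stood at 7434 CPM in Gzma only and 332.8 CPM in Gzmc only cells of the MWA library, and at 10251 and 213.6 CPM in the MWA plus TIGIT library, log2 ratios of -4.48 and -5.59. Ccl4 went from 1006 to 114.2 CPM and from 1262 to 22.1 CPM. Both encode chemokines that attract T cells and myeloid cells. Prf1, the gene of perforin, went from 273.3 to 89.4 CPM and from 532.3 to 103.1 CPM. Klra7, the gene of the inhibitory receptor Ly49G, had log2 ratios of -3.32 and -2.30, and Klra4 of -1.58 and -1.64. Eomes was present in both classes, at 145.8 and 175.3 CPM in Gzma only and 49.67 and 110.5 CPM in Gzmc only cells, and Tyrobp, at 2263 and 2183 CPM and at 2022 and 1922 CPM, was close in both. The 12 ILC1 genes together stood at 302.5 and 430.3 CPM in Gzma only and at 1212 and 1282 CPM in Gzmc only cells, whereas the mature NK genes stood at 2587 and 2840 CPM and at 1123 and 1488 CPM. This was no trait of Gzmc only cells alone, since the cells with neither granzyme had 1266 and 1328 CPM of the ILC1 genes and 1243 and 940.6 CPM of the mature NK genes. Cells with both had 602 and 1248 CPM of the ILC1 genes and 1860 and 1554 CPM of the mature NK genes. Nor was the ILC1 gene sum particular to NK cells. It was 1305 and 1499 CPM in CD8+ T cells and 897.4 and 900.2 CPM in B cells. The mature NK sum was 1857 and 2168 CPM over all NK cells and 470.9 and 502.7 CPM in CD8+ T cells. In macrophages it was 1988 and 1955 CPM, and in B cells 1665 and 1237 CPM. Il7r, also an ILC1 gene of the list, had only 6 and 4 UMIs over all NK cells. The labels give no name for either class, and none was given here.

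**Figure D3:**
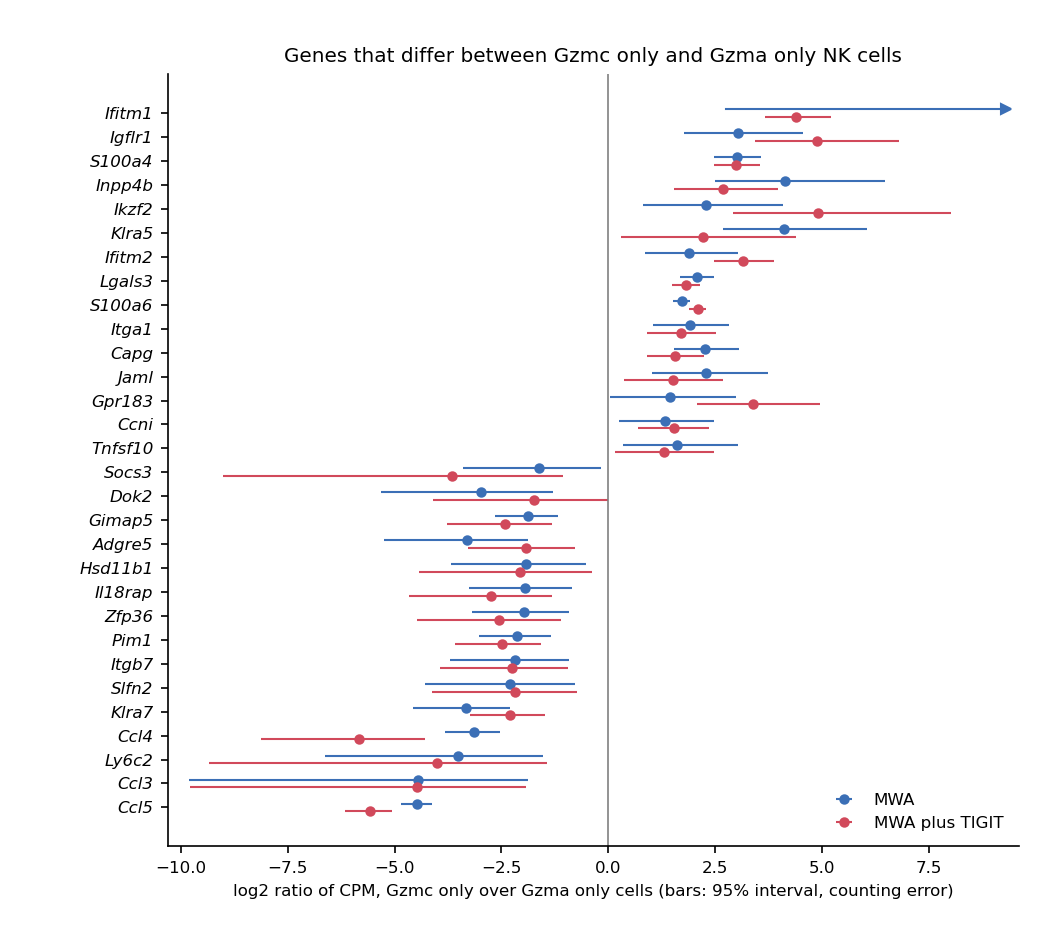
Log2 ratio of CPM in Gzmc only over Gzma only NK cells (horizontal axis) for 15 genes higher and 15 genes lower in Gzmc only cells, chosen after their values were seen, with 95% counting intervals as bars, in the MWA library (blue) and the MWA plus TIGIT library (red). Ifitm1 has no UMI in Gzma only cells of the MWA library, so an arrow from its lower bound is drawn, and Ccl5 lies at -4.48 and -5.59.

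Clustering of the NK cells alone gave 2 clusters, and 3 when genes were scaled over both libraries together. One cluster held 169 cells, with Klf2, Isg15, Ccl3 and Ccl5 among its leading genes, and the other held 74 cells, led by Gzmf, Ifitm1, Gzmd, Gzmc and Mki67. Fewer than 3 markers of any subset were among the leading genes of either, so both were left without a name. The median cell had 3411 UMIs in the first and 7357 UMIs in the second. Several leading genes were held by few cells of their cluster. In the second, with 39 MWA and 35 MWA plus TIGIT cells, Gzmc was found in 35 and 24. Gzmf and Gzmd were each found in 3 and 3 of these cells, Ifitm1 in 4 and 6, and Mki67 in 3 and 7. Isg15 was found in 8 of 98 and 5 of 71 cells of the first.

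The share of NK cells with Gzma was higher in the MWA plus TIGIT library. Gzma only cells made up 54.01% (interval 45.3 to 62.56%) of NK cells in the MWA library and 67.92% (58.16 to 76.66%) in the MWA plus TIGIT library, a difference of 13.91 points (0.9348 to 26.25). The Gzmc only cells made up 22.63% and 14.15%, a difference of -8.477 points whose interval held 0 (-18.42 to 2.049). With every cell thinned to 1000 UMIs and 1 UMI as the limit, the share of Gzma only cells was 54.74% and 68.57%, a difference of 13.83 points (0.8529 to 26.15). With 1 UMI as the limit and no thinning it was 55.47% and 63.21%, and with 10 UMIs 51.09% and 63.21%, and both of these intervals held 0. The share of cells that held both genes was 10.22% and 9.434%, a difference of -0.785 points (-8.741 to 7.742), and it was 17.52% and 16.98% with 1 UMI and 4.38% and 3.774% with 10 UMIs as the limit.

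Gene levels were then compared between the libraries over all NK cells, to ask what the addition of the antibody went with. Of 2738 genes with at least 50 UMIs over both libraries, 206 (7.52%) were at least 1.5-fold higher in the MWA plus TIGIT library and 64 (2.34%) at least 1.5-fold lower, and the median log2 ratio of all of them was 0.073. This split depended on the scaling. By CPM, 76.3% of the genes past 1.5-fold were higher, whereas TMM scaling, which moves every log2 ratio by -0.124, gave 111 higher and 137 lower (44.8% higher), and DESeq2 size factors, which move it by -0.193, gave 84 and 199 (29.7% higher). The values below are ratios of CPM. With 1 library per group, a difference between these libraries cannot be told apart from one between mice, tumors or preparations.

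Tigit itself, the gene of the antibody's target at chr16:43648867-43664146, was near the limit of detection. It had 7 UMIs in 7 of 137 NK cells of the MWA library and 5 UMIs in 5 of 106 of the MWA plus TIGIT library, 10.4 and 8.494 CPM, against 5.46 and 6.48 CPM in CD8+ T cells. No difference in its level was detectable at this depth. Of the 14 inhibitory receptors and checkpoints only 5 could be measured, with a median log2 ratio of -0.01 and none past 1.5-fold. Klrb1b, an inhibitory receptor gene outside that list, had 115 and 161 UMIs and a log2 ratio of 0.68 (0.32 to 1.04). Klrd1, the CD94 chain, stood at 1067 and 1267 CPM, and its partner Klrc1, NKG2A, at 156 and 158 CPM. Pdcd1 had 0 and 6 UMIs, Lag3 12 and 22, Havcr2 3 and 1, and Ctla4 24 and 13, too few to compare. Cd226, the activating counterpart of TIGIT, stood at 105.5 and 125.7 CPM with a log2 ratio of 0.25 (-0.24 to 0.74), an interval that held 0.

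Several cytotoxic genes were higher in the MWA plus TIGIT library, and 1 was lower. Of the 16 measured (20 listed), 5 were at least 1.5-fold higher (Gzmf, Gzmd, Ctsc, Fasl and Prf1) and 1 lower (Gzmc), against 7.52% and 2.34% of all genes. Prf1 stood at 225.8 CPM in the MWA library and 356.7 CPM in the MWA plus TIGIT library, a log2 ratio of 0.66 (0.35 to 0.97), with a UMI in 52.55% and 64.15% of NK cells. Fasl, the gene of Fas ligand, stood at 56.46 and 101.9 CPM, 0.85 on the log2 scale (0.24 to 1.48). It had a UMI in 22.63% and 43.4% of cells. This difference shrank to 6.542 points once each cell was thinned to 1000 UMIs, which is within counting error. Ctsc, the gene of cathepsin C, which activates granzymes, stood at 43.08 and 79.84 CPM (0.89, 0.19 to 1.61). Neither of the 2 best known granzymes was past 1.5-fold. Gzma had a log2 ratio of 0.22 (0.15 to 0.29) and Gzmb of 0.06 (-0.09 to 0.20). Prf1 was at 0.54 under TMM scaling and 0.47 under DESeq2 size factors, below 1.5-fold, whereas Fasl and Ctsc were past it under both. In CD8+ T cells Gzmb had a log2 ratio of 0.74 and Prf1 of 0.49.

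Gzmc was lower, whereas Gzmf and Gzmd, which lie near it on chromosome 14, were higher on the UMIs of very few cells. Gzmc had 2635 UMIs in the MWA library and 1372 in the MWA plus TIGIT library, or 3915 and 2331 CPM, and its log2 ratio was -0.75 (-0.84 to -0.65). The cell with the most Gzmc UMIs of each library did not carry this, since without it the ratio was -0.83. Within Gzmc only cells the ratio was -0.92 (-1.05 to -0.80), against 0.03 for Gzma within Gzma only cells. In CD8+ T cells the Gzmc ratio was -1.62. Gzmf had 9 UMIs in the MWA library and 463 in the MWA plus TIGIT library, of which 2 cells held 235 and 217, and all other cells 11. Gzmd had 9 and 68 UMIs, with a log2 ratio of 3.11 (2.10 to 4.30). Without the top cell of each library, an alternative added after the data were seen, the ratio was 1.48. Its interval then reached to both sides of no difference (-0.13 to 3.33). The last 300 bases of the transcripts, where these libraries are read, were 70.6% identical between Gzmc and Gzmf and 89.1% between Gzmd and Gzmf, so reads of Gzmd, Gzme, Gzmf and Gzmg in particular may have been divided among them.

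**Figure D4:**
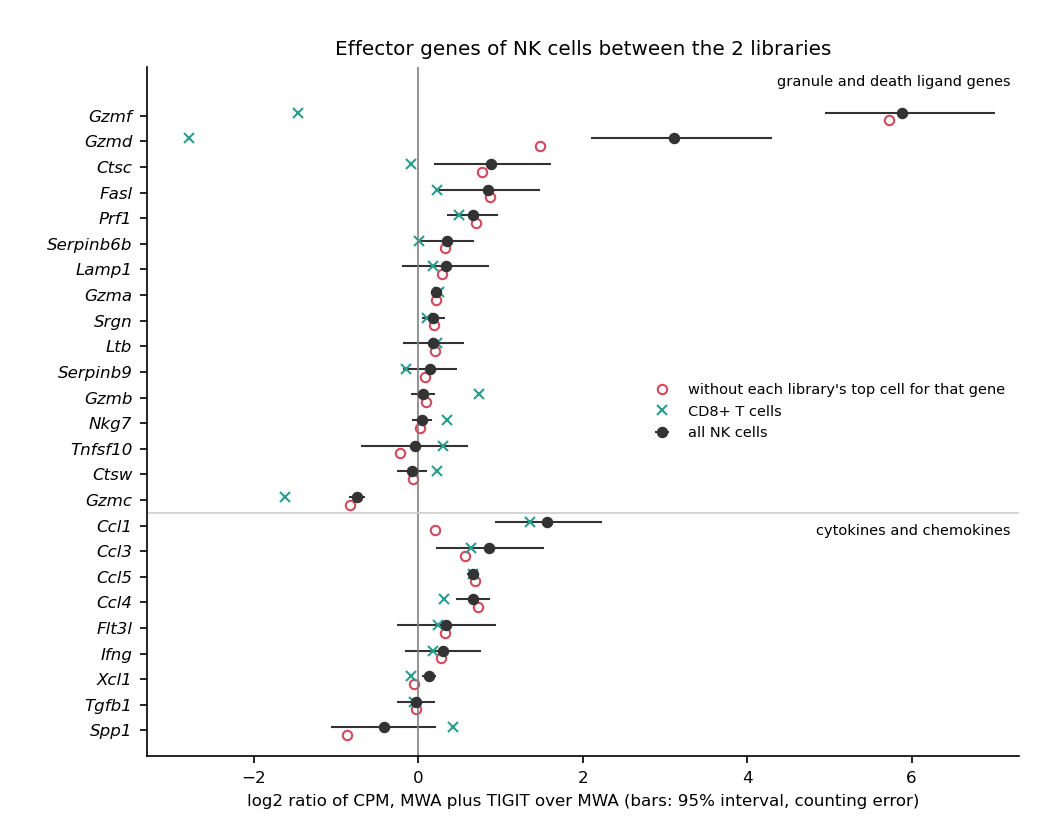
Log2 ratio of CPM, MWA plus TIGIT over MWA (horizontal axis), of the measured cytotoxic genes and cytokines in NK cells (black, bars are 95% counting intervals), without each library's top cell for the gene (open red) and in CD8+ T cells (green crosses). Ccl5 and Ccl4 lie at 0.67 and 0.66 with narrow bars, Gzmc at -0.75, and Ccl1 at 1.56 but 0.20 without its top cells.

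Ccl3, Ccl4 and Ccl5 were higher in the MWA plus TIGIT library. The summed level of the 16 cytokines and chemokines was 8247 CPM in the MWA library and 11173 CPM in the MWA plus TIGIT library, a log2 ratio of 0.44, and 4 of the 9 measured genes were past 1.5-fold, all higher, against 7.52% of all genes. Ccl5 stood at 3708 and 5893 CPM (log2 ratio 0.67, 0.59 to 0.74), and Ccl4 at 494.7 and 783.1 CPM (0.66, 0.46 to 0.87). Ccl3, a related chemokine gene, stood at 50.51 and 91.73 CPM (0.86, and 0.57 without its top cells). Ccl5 and Ccl4 both came to 0.54 under TMM scaling and 0.47 under DESeq2 size factors, below 1.5-fold. Of the 4, only Ccl3 and Ccl1 stayed past it under both. By CPM without their top cells, Ccl3 at 0.57 and Ccl1 at 0.20 were also below 1.5-fold. In CD8+ T cells the Ccl5 log2 ratio was 0.66 and that of Ccl4 0.32. Ccl5 is also a gene of the Gzma only cells, and within Gzma only cells its log2 ratio was 0.46 (0.38 to 0.54) and that of Ccl4 0.33 (0.10 to 0.55). Prf1 within the same cells was at 0.96 (0.56 to 1.38) and Fasl at 0.81 (0.07 to 1.58). Ifng, the gene of interferon-γ, stood at 114.4 and 141 CPM, a log2 ratio of 0.30 whose interval held 0 (-0.16 to 0.77). Xcl1 had a log2 ratio of 0.13, and -0.05 without its top cells. Ccl1 had 29 and 75 UMIs, of which 1 cell of each library held 22 and 68, and its log2 ratio of 1.56 was 0.20 without them.

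Few genes of activation, signaling and lineage were past 1.5-fold. No activating receptor of the 12 measured was past 1.5-fold, with a median of 0.24 against 0.073 for all genes. Klrk1, the gene of NKG2D, stood at 392.2 and 489.3 CPM (0.32, 0.07 to 0.57). Among the adaptors and kinases, Zap70, which relays signals from receptor adaptors, was the only one past the fold, at 56.46 and 93.43 CPM (0.73, 0.10 to 1.36), whereas Fcer1g had a ratio of -0.18 (-0.28 to -0.09). The median of this list, 0.05, that of the NK lineage transcription factors, 0.005, and that of the Ly49 family, 0.09, were each above 0 by CPM and below 0 under both other scalings. None of the 11 lineage factors was past 1.5-fold. Eomes had a log2 ratio of 0.33 (-0.16 to 0.82), Id2, which NK cells need to develop, of 0.21 (0.02 to 0.40), and Tbx21, the gene of T-bet, of 0.30 (-0.36 to 0.97). In the Ly49 family Klra7 was at 233.3 and 314.3 CPM (0.43) and Klra9, the inhibitory Ly49I, at 147.1 and 209 CPM (0.51). Klra5 was lower, at 98.05 and 52.66 CPM (-0.90, -1.56 to -0.26), on the UMIs of 14 and 7 cells. Of 10 homing receptors only Itgb2, the β2 integrin chain of LFA-1, was past the fold, at 52 and 88.34 CPM (0.76). The cytokine receptors had a median of 0.27 with none past it.

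**Figure D5:**
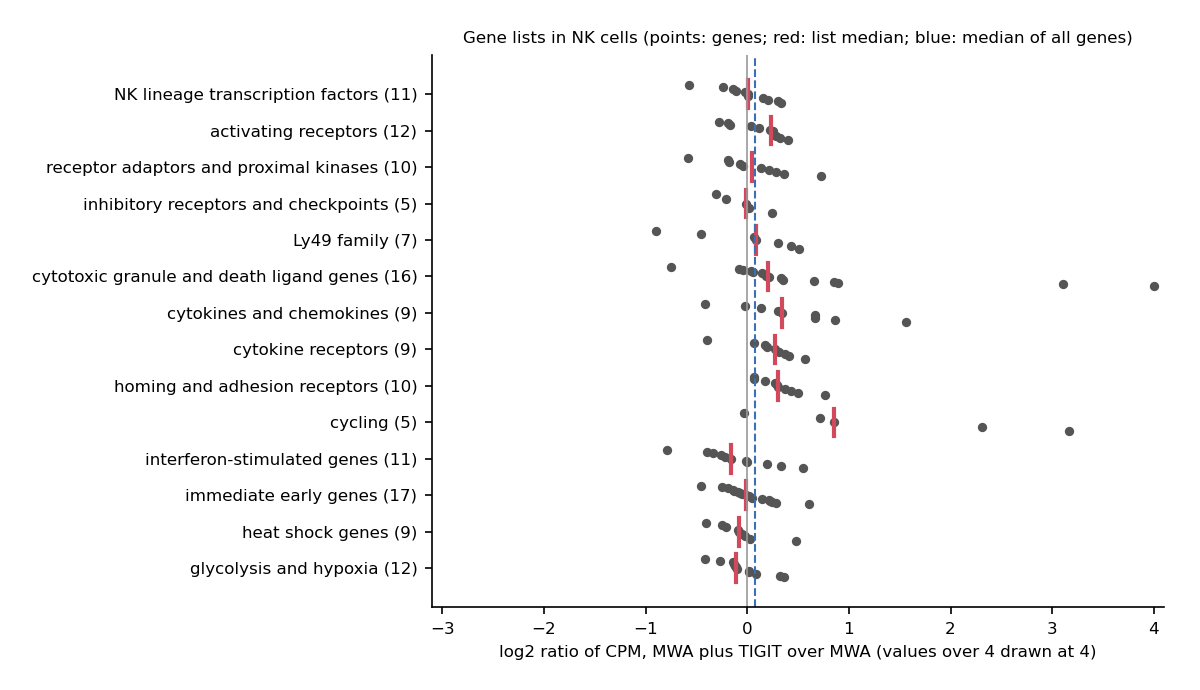
Log2 ratio of CPM, MWA plus TIGIT over MWA, of each measured gene in NK cells (points) for 14 gene lists, with the number of measured genes in parentheses, the list median in red and the median of all 2738 genes, 0.073, as a dashed blue line; values over 4 are drawn at 4. The medians of cytokines and chemokines, 0.34, and of cycling genes, 0.86, lie above that line, and those of interferon-stimulated genes, -0.15, and glycolysis, -0.11, lie below it.

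Interferon-stimulated genes had a median of -0.15 over 11 of 24 measured genes. Bst2, the gene of tetherin, was the single one past 1.5-fold, at 187.2 and 108.7 CPM (-0.78, -1.24 to -0.34), while in CD8+ T cells its ratio was 0.13. The 17 immediate early genes, which respond to stimulation and to tissue handling, had a median of -0.008, and Ier5 alone was past the fold. Heat shock genes had a median of -0.08 and glycolysis genes of -0.11, with none past it. Cycling genes were scarce, with 5 of 22 measured. Mki67 had 6 and 47 UMIs, 32 of the latter in 1 cell, and Top2a had 12 and 52 UMIs, with a log2 ratio of 2.31 that was 1.56 without its top cells. Cells with at least 3 UMIs of the 22 cycling genes numbered 31 of 137 (22.63%, interval 15.92 to 30.55%) and 25 of 106 (23.58%, 15.88 to 32.82%). Pcna, the sliding clamp of DNA replication, stood at 60.91 and 110.4 CPM (0.86, 0.27 to 1.46).

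Several of the genes at the high end of the list of ratios were held by few cells. Besides Gzmf, Gzmd, Mki67, Top2a and Ccl1, the 10 highest were Ifitm1 with 20 and 220 UMIs in 4 and 7 cells (3.65), Akirin1 with 13 and 39 UMIs in 12 and 27 cells (1.78), Bcl2a1d, an anti-apoptotic BCL2 relative, with 14 and 36 UMIs in 12 and 18 cells (1.56), Ifitm2 with 54 and 133 (1.49) and Stmn1 with 29 and 71 (1.49). The 10 lowest had log2 ratios between -1.51 and -0.98. Each had UMIs in at least 20 cells of the MWA library, and no cell held more than 8. They were Zfp598, which ubiquitinates collided ribosomes, with 39 and 12 UMIs, Gstp1, a glutathione transferase, with 57 and 21, Relb, a subunit of NF-κB, with 45 and 17, Ssbp4 with 69 and 29, Mybbp1a with 63 and 28, Atf3, a stress-induced transcription factor, with 36 and 16, and Bud23, Rchy1, Bccip and Xpo1. Gstp1, at -1.25, was also lower in CD8+ T cells, at -1.03. For 17 of the genes past 1.5-fold, a single cell held a large part of the UMIs of the higher library (at least 1 in 4).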

How the data were processed

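CD45+ cells from the left, untreated MC38 tumors of 2 groups were captured with 10x Genomics chemistry V3.1, and each group was 1 library. The deposited values are raw UMI counts per gene and barcode, which the authors made by aligning reads to the mm10 mouse genome with Cell Ranger and filtering barcodes. The submitters' processing notes name version 6.1.1, whereas the file headers name 4.0.0. The number of injections is given as in the labels, and the study's methods give another number. The deposited tables held 10217 and 10190 barcodes (MWA, MWA plus TIGIT) and 32285 genes. Barcodes under 200 genes (2 and 12) or over 10% mitochondrial UMIs (178 and 265) were removed here; the study also removed barcodes over 5000 UMIs, which was run here as an alternative.

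The NK cells, gene lists and tests were chosen with earlier results of these data known. The 137 and 106 NK cells held 673097 and 588655 UMIs. Of 410 and 332 kept cells with at least 2 marker UMIs, 259 and 219 were removed for Cd3d or Cd3e, 4 and 0 for Cd8b1 and 10 and 7 for C1q. CD8+ T cells (1684 and 1846), B cells (73 and 60) and macrophages (4633 and 4837) were set by marker UMIs in the same way. Doublets were searched for with simulated doublets, which found 57.3% and 64.3% of 300 added pairs and called 806 and 786 kept cells but no NK cell; none was removed. The libraries shared 37 barcodes, 1 of them an NK cell.

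Counts were summed over NK cells and divided by their total (CPM). Log2 ratios have exact conditional binomial intervals, shares have exact Clopper-Pearson intervals, and differences of shares combine both (Newcombe). PCR copies are collapsed by UMIs, and intervals cover counting error only. With 1 library per group no test between groups was possible, and a gene was counted when it was past 1.5-fold and had at least 50 UMIs. Named genes were the listed genes, the 10 highest and 10 lowest ratios between libraries among genes of at least 50 CPM whose interval left out 1, the 20 highest over other cells, the 10 highest and 10 lowest over CD8+ T cells, and the genes of the rule, without mitochondrial, ribosomal protein, histone, receptor segment and clone-named genes. NK cells were clustered (2000 variable genes, 20 components, 15 neighbors, Leiden resolution 0.5). Other filters, scalings (edgeR TMM, DESeq2 size factors) and members were tried. Scripts were tested on simulated data. Python 3.11.15, numpy 2.4.6, scipy 1.17.1, pandas 2.3.3, leidenalg 0.10.2, scikit-learn 1.9.0, R 4.3.3, edgeR 4.0.16 and DESeq2 1.42.0 were used. Gene positions are from GENCODE vM21 and promoters from RefSeq, both of GRCm38. Some genes of the lists are not reported here.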

Additional observations from a re-analysis of the deposited data

Results flagged for a closer look

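For 4 genes the contrast of MWA plus TIGIT over MWA ran one way in NK cells and the other way in CD8+ T cells, at least 1.5-fold in each and with both counting intervals clear of 0. Genes with a smaller difference in either cell type are not among them. The difference between the cell types was not tested, since each group is 1 library. Cxcl10, a chemokine gene induced by interferon-γ, had a log2 ratio of 1.35 (0.494 to 2.27) in NK cells and -0.711 (-0.971 to -0.454) in CD8+ T cells. Klrb1b, the inhibitory receptor NKR-P1B, had 0.679 (0.325 to 1.04) in NK cells and -1.05 (-1.86 to -0.268) in CD8+ T cells. The granzyme genes Gzmd and Gzmf had 3.11 (2.1 to 4.3) and 5.88 (4.94 to 7.02) in NK cells, and -2.79 (-3.48 to -2.17) and -1.46 (-1.68 to -1.25) in CD8+ T cells. The Gzmf and Gzmd values in NK cells rest on the few cells given above. The number of NK cells that held Cxcl10 is not given here. Whether its UMIs in NK cells came from other cells, such as macrophages, was not tested. In CD8+ T cells Klrb1b was near the limit of detection, with 42 and 22 UMIs (4.985 and 2.416 CPM). Gzmd had 154 and 24 UMIs there (18.28 and 2.636 CPM). Gzmf had 617 and 242 UMIs in CD8+ T cells (73.24 and 26.58 CPM), also in few of them. Once each cell was thinned as above, a Gzmf UMI was found in 0.9581% and 0.6554% of CD8+ T cells.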

How the results depend on the processing

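No paired analysis was possible because each group was 1 library. No replicate was left out for the same reason. The NK cells were few, single cells held much of several genes at the ends of the list, and macrophage UMIs were present in most cells. The NK share of kept cells was 1.365% and 1.069% (MWA, MWA plus TIGIT). It was 1.146% in the MWA library when 7 T cell genes had to be absent, 0.4384% and 0.2825% when no C1q UMI was allowed, 1.706% and 1.538% among barcodes of at most 5000 UMIs, and 0.7259% and 0.5289% when each barcode was thinned to 1000 UMIs before the rule; the other settings stayed within counting error. The MWA share was the higher of the pair in each setting given with 2 values.

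Genes past 1.5-fold numbered 206 higher and 64 lower. They were 43 and 39 without C1q UMIs, 56 and 35 at up to 5000 UMIs, 111 and 137 with TMM, 84 and 199 with DESeq2 size factors, 782 and 355 with at least 20 UMIs per gene, 54 and 11 with at least 100, and 2315 and 1362 with no minimum. With each cell weighted equally 130 were lower, and without cycling cells 121 were higher. Fewer cells or genes in part set these counts.

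List medians moved as follows. Glycolysis genes were at -0.1543 without the 7 T cell genes, -0.1545 without C1q, -0.1537 at up to 5000 UMIs, -0.2302 with TMM, -0.2993 with DESeq2 and -0.1795 without cycling cells. Without C1q, inhibitory receptors were at 0.2547, the Ly49 family at 0.5351, interferon-stimulated genes at -0.636 and immediate early genes at 0.2383. At up to 5000 UMIs, inhibitory receptors were at 0.2618, cytokine receptors at 0.4524, homing receptors at 0.5293 and interferon-stimulated genes at -0.6076. Immediate early genes were at -0.1323 with TMM and -0.2014 with DESeq2, where cytotoxic genes were at 0.008119 and heat shock genes at -0.2714. Cytokine receptors were at 0.4481 without cycling cells. The other 132 planned values and 28 added after the data were seen moved by less than the limit set for a change.

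Of the genes at the ends of the list, Ccl1 reversed to -2.184 without the 7 T cell genes and -4.479 without cycling cells. Stmn1 reversed to -0.4916 without C1q, -1.896 at up to 5000 UMIs and -2.791 without cycling cells, Gstp1 to 0.1299 without C1q, and Ifitm2 to -2.389 at up to 5000 UMIs; the cause was not tested. The difference in the share of cells with a Fasl UMI shrank to 6.542 points after thinning, within counting error. Clustering gave 5 clusters at resolution 1.0 and 3 with genes scaled over both libraries together, against 2.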
